A study of Mus musculus with 6 samples.

Results

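The genes that load and display antigen on major histocompatibility complex (MHC) molecules were compared between γδ thymocytes of Rag1Cre-Nfatc1fl/fl mice and γδ thymocytes of Nfatc1fl/fl control mice. They were chosen by name: the 34 protein-coding genes whose symbol starts with H2-, the name of the mouse MHC, and 12 partner genes (B2m, Tap1, Tap2, Tapbp, Cd74, Ciita, Nlrc5, Psmb8, Psmb9, Psmb10, Cd1d1 and Mr1), in all 46 of the 41195 genes in the tables. By role, 3 belonged to classical class I (H2-K1, H2-D1 and B2m), 24 were class I-like, 10 were class II genes with Cd74, 6 supply peptides to class I, 2 are regulators, and 1, H2-Ke6, is a hydroxysteroid dehydrogenase gene that carries the name for its place in the MHC alone.

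The 3 Rag1Cre-Nfatc1fl/fl libraries came from mice in which both Nfatc1 alleles carry loxP sites around exon 3 and Rag1 drives Cre recombinase. The 3 Nfatc1fl/fl libraries came from mice with the same floxed alleles, and the study kept its mice on a C57/B6 background, matched for sex and age. Cre from Rag1 acts in early thymocytes before the γδ and αβ lineages part, so the deletion was not limited to γδ cells. In both groups γδ thymocytes were enriched with a magnetic TCRγ/δ kit and poly(A) RNA was sequenced. Whether each library is a separate animal is not stated in the labels, and the p-values therefore cover the spread among these libraries alone, part of which may be technical.

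Classical class I molecules are a heavy chain, made from H2-K1 or H2-D1 in C57BL/6 mice, bound to β2-microglobulin, and show peptides of the cell's own proteins to CD8 T cells and NK cells. The peptides are cut by the proteasome, whose immunoproteasome subunits trim them for class I, and are carried into the endoplasmic reticulum by the TAP transporter. Class II molecules are made mainly by professional antigen-presenting cells, where CD74 guards the groove, H2-DM loads the peptide and H2-O holds H2-DM back. Class I-like molecules such as Qa-1, CD1d and MR1 show a narrow range of peptides, lipids or metabolites to innate-like T cells, and T10 and T22 are known ligands of some mouse γδ TCRs.

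Libraries held 20734771 to 22638531 gene reads, of which 94.1% to 95.4% were unique. The antigen presentation genes took 0.722%, 0.764% and 0.811% of the gene reads in Rag1Cre-Nfatc1fl/fl replicates 1, 2 and 3, against 0.562%, 0.52% and 0.514% in the Nfatc1fl/fl replicates. Rag1Cre-Nfatc1fl/fl replicate 3 stood apart from the other libraries, with 16.2% of its reads in ribosomal protein genes (11.8% and 12.5% in the other Rag1Cre-Nfatc1fl/fl libraries, 9.01% to 9.74% in Nfatc1fl/fl), and many values are given without it as well. The γδ cell markers were abundant in every library (a summed 3470 to 3507 CPM, reads of a gene over the TMM-scaled depth, in Rag1Cre-Nfatc1fl/fl and 3778 to 4012 CPM in Nfatc1fl/fl). Of the 10, 4 were called lower in Rag1Cre-Nfatc1fl/fl, where 3.51% of all tested genes were, with Trdc (log2 fold change -0.80) among them. Nfatc1 itself averaged 371 CPM in Rag1Cre-Nfatc1fl/fl and 204 CPM in Nfatc1fl/fl libraries, a count over the whole gene that does not check the loss of 1 exon, so groups are named by their labels. By RT-PCR the study reported strongly reduced Nfatc1 RNA in double-negative, double-positive and single-positive thymocytes of Rag1Cre-Nfatc1fl/fl mice.

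Calls rest on edgeR's quasi-likelihood test, with an adjusted p under 0.01 and a log2 fold change beyond 0.5 in either direction. By this rule 6.47% of the 13185 tested genes were called higher and 3.51% lower in Rag1Cre-Nfatc1fl/fl. Of the 46 antigen presentation genes 34 were tested. Of these, 4 were called higher (B2m, H2-K1, H2-D1 and Tap1), 1 was called lower (H2-Ob) and 29 were not called. All 3 Rag1Cre-Nfatc1fl/fl libraries lay above all 3 Nfatc1fl/fl libraries in 18 of the 34 genes and below them in 4, where 23.3% of all tested genes lay above and 23.4% below. The median log2 fold change of the 34 was 0.52, against -0.0069 over all tested genes. At an adjusted p under 0.05 alone, 14 were higher (41.2%, against 13.2% of all tested genes) and 4 lower (11.8%, against 10.1%). In these bulk samples a different share of cells of a type and a different amount of RNA per cell cannot be told apart.

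**Figure D1:**
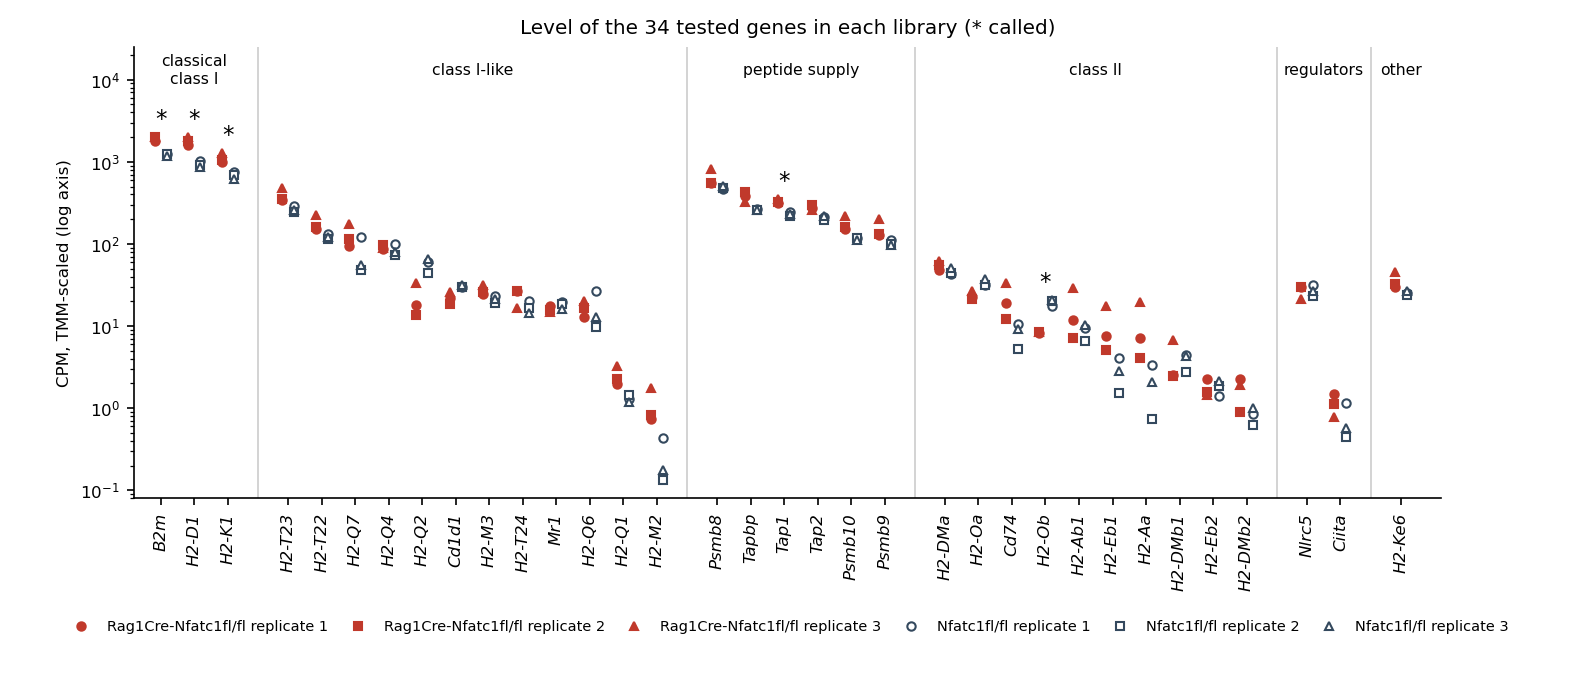
Level of each of the 34 tested genes in every library, as CPM on a log axis, grouped by role and ordered by mean level, with Rag1Cre-Nfatc1fl/fl libraries as filled points and Nfatc1fl/fl libraries as open points, and a star on each called gene. B2m, H2-D1 and H2-K1 stood highest, and their 3 Rag1Cre-Nfatc1fl/fl points lay above all 3 Nfatc1fl/fl points.

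The classical class I genes were higher in Rag1Cre-Nfatc1fl/fl γδ thymocytes, all 3 of 3 called, where 6.47% of all tested genes were called higher. B2m, the light chain shared by all class I molecules, had 1815, 2004 and 2023 CPM in Rag1Cre-Nfatc1fl/fl replicates 1, 2 and 3, against 1261, 1229 and 1169 CPM in the Nfatc1fl/fl replicates. The groups did not overlap, and each was narrow (mean 1947 ± 115 CPM in Rag1Cre-Nfatc1fl/fl and 1220 ± 46.9 CPM in Nfatc1fl/fl, SD, n = 3 each), and the log2 fold change was 0.67 with SE 0.0915 (edgeR adjusted p = 0.00195). H2-D1, a classical heavy chain gene, had 1593, 1788 and 2006 CPM in Rag1Cre-Nfatc1fl/fl, against 1028, 915 and 876 CPM in Nfatc1fl/fl libraries. Its log2 fold change of 0.93 was the largest of the 4 called higher (SE 0.117, edgeR adjusted p = 0.00138). H2-K1, the other classical heavy chain gene, had 990, 1060 and 1275 CPM in Rag1Cre-Nfatc1fl/fl, against 744, 687 and 622 CPM in Nfatc1fl/fl libraries (log2 fold change 0.70, SE 0.123, edgeR adjusted p = 0.0061).

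The size of these 3 differences moved little when single libraries were left out, but the calls did not all hold. Over the 6 fits that each leave out 1 library the log2 fold change stayed between 0.65 and 0.73 for B2m, 0.86 and 1.02 for H2-D1, and 0.59 and 0.77 for H2-K1. The B2m and H2-K1 calls were lost without Rag1Cre-Nfatc1fl/fl replicate 2 or without any 1 of the Nfatc1fl/fl libraries (edgeR adjusted p 0.0126 to 0.0189 for B2m and 0.0208 to 0.0366 for H2-K1), and the H2-D1 call without Nfatc1fl/fl replicate 2 or 3 (0.0115 and 0.0124). Without Rag1Cre-Nfatc1fl/fl replicate 3 all 3 genes were called, among 5 antigen presentation genes called higher and 4 lower, where 8.42% of all tested genes were called higher and 4.95% lower. With the trend of counts with exon length removed B2m, a short gene, was no longer called (log2 fold change 0.48, edgeR adjusted p = 0.0115).

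Per length, as TPM, the share of transcripts estimated from exon reads and exon length, the 2 heavy chains summed to 2587, 2778 and 2636 TPM in Rag1Cre-Nfatc1fl/fl and 1757, 1688 and 1551 TPM in Nfatc1fl/fl libraries. The B2m call was lost on TPM with a pseudocount of 1 or 0.1 (log2 fold change 0.52 in both, limma-trend adjusted p = 0.0281 and 0.0362). With a pseudocount of 0.1 the H2-K1 call was lost too (0.54, limma-trend adjusted p = 0.0112). H2-D1 exceeded H2-K1 in every library, by a ratio of TPM of 1.62, 1.70 and 1.59 in Rag1Cre-Nfatc1fl/fl and 1.39, 1.34 and 1.42 in Nfatc1fl/fl, so the H2-D1 excess was wider in each Rag1Cre-Nfatc1fl/fl library. The TPM of B2m over that of H2-K1 and H2-D1 together was 2.12, 2.13 and 1.86 in Rag1Cre-Nfatc1fl/fl and 2.15, 2.32 and 2.36 in Nfatc1fl/fl, lower in each Rag1Cre-Nfatc1fl/fl library. Over all class I H2 genes, with the class I-like ones included, it was 1.68, 1.70 and 1.45 in Rag1Cre-Nfatc1fl/fl and 1.54, 1.75 and 1.70 in Nfatc1fl/fl, with overlap between the groups. H2-K1 and H2-D1 together made 77.9% to 80.0% of the class I H2 TPM in Rag1Cre-Nfatc1fl/fl libraries and 71.9% to 75.3% in Nfatc1fl/fl libraries. These ratios are descriptions and were not tested.

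**Figure D2:**
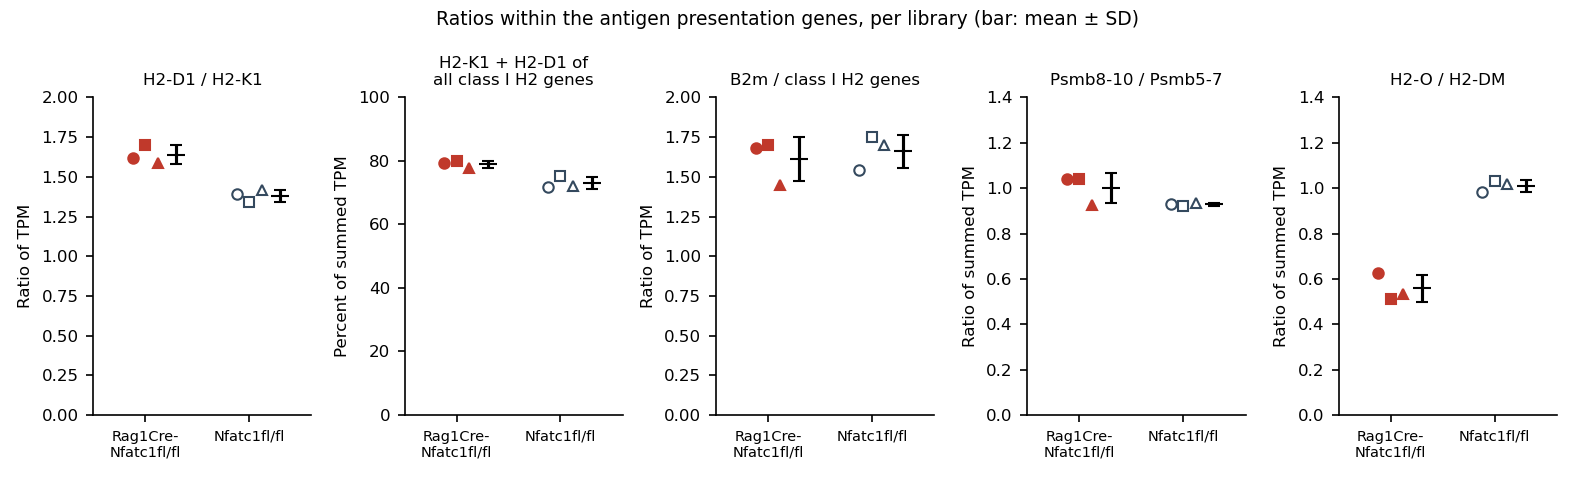
Ratios between antigen presentation genes in each library, from TPM, with Rag1Cre-Nfatc1fl/fl on the left and Nfatc1fl/fl on the right of each panel and the mean ± SD (n = 3) beside the points. The H2-D1 to H2-K1 ratio was higher and the H2-O to H2-DM ratio lower in all 3 Rag1Cre-Nfatc1fl/fl libraries, while the ratio of B2m to all class I H2 genes, class I-like ones included, overlapped.

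Class I and class II promoters carry short, well-studied motifs, and the 250 bases before the RefSeq start (GRCm38.p6) are shown for genes of opposite direction within each class. In class I these are H2-K1, H2-D1 and B2m, called higher, and H2-Q2, lower on average but not called, and in class II they are H2-Ob, called lower, and H2-Aa, higher on average but not called. Capitals mark, on either strand, GGGGATTCC (most of a κB site), TTTCACTTC (the interferon element of class I promoters, chosen after the sequences had been read), GAAANNGAA (within the interferon-stimulated response element), GCAACNNAT (within an X1 box), TGACG (an X2 box core) and TGATTGG (a Y box). Matches to different motifs did not overlap in these genes. Of 2 RefSeq starts of H2-K1, the one at the end of its gene range in the tables is used.
H2-K1, chr17:34000334-34000583, minus strand: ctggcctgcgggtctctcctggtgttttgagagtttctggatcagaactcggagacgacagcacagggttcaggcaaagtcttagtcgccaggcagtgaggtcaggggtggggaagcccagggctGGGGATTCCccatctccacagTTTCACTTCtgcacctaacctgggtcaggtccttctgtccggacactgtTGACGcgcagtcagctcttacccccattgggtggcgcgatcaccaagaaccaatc
H2-D1, chr17:35262844-35263093, plus strand: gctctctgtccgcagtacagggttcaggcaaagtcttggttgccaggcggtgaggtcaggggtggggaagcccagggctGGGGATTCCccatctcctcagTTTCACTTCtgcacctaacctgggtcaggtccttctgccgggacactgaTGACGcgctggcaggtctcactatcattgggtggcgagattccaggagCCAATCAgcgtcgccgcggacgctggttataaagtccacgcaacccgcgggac
H2-Q2, chr17:35342057-35342306, plus strand: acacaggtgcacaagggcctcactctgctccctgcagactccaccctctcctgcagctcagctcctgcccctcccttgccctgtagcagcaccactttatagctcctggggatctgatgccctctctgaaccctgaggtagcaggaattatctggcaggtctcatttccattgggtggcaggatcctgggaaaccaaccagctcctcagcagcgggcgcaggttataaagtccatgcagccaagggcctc
B2m, chr2:122147437-122147686, plus strand: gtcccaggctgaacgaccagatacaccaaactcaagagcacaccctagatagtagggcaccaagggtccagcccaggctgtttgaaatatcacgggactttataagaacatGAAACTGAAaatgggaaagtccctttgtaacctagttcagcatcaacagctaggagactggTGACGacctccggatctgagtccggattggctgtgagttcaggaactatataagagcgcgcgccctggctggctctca
H2-Ob, chr17:34238655-34238904, plus strand: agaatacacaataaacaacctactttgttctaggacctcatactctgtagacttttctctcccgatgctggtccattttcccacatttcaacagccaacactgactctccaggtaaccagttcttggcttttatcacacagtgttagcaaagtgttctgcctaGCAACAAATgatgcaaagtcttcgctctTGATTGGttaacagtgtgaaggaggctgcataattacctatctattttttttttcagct
H2-Aa, chr17:34287824-34288073, minus strand: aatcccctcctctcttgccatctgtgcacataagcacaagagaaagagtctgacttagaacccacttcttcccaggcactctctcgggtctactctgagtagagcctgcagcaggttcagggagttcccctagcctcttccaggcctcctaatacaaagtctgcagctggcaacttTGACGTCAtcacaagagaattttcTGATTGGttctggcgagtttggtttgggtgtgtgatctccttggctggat

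The H2-K1 and H2-D1 windows shared a run of 47 bases and the same order of κB site, interferon element and X2 core, with the κB site starting at base -125 in H2-K1 and -171 in H2-D1. H2-Q2, which lies close to H2-D1 in the MHC and encodes a Qa-type heavy chain, shared no run longer than 14 bases with H2-D1 and 12 with H2-K1, and none of the capital motifs was found in its window. A promoter window was found for 38 of the 46 genes, all but Cd1d1, Cd74, Ciita, H2-Ab1, H2-Q1, H2-T24, Nlrc5 and Tap2. The κB site was in 4 of the 38 (H2-D1, H2-K1, H2-Q6 and H2-Q7) and in 0.213% of the 32851 RefSeq promoter windows of that length. The class I interferon element was in 7 of the 38 and 0.402% of all windows. It was chosen after the sequences had been read, so this comparison is no test. The interferon-stimulated element was in 3 and 7.13%, the Y box in 23 and 7.23%, and the X2 core in 15 and 17.8%. The X1 box was in 4 (H2-Eb1, H2-Eb2, H2-Ob and Mr1) and 1.48%. Windows of related genes share runs of bases, 66 between H2-Q6 and H2-Q7, so they are not separate observations.

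H2-Q6 and H2-Q7 held the same κB site and interferon element as the called heavy chains, and neither was called. The letters GGAAA, the core that NFAT factors bind, are frequent by chance in a window of this length and were in 26 of the 38 windows and 55.6% of all windows. They were found before B2m, Tap1 and H2-Ob among the 5 called genes, and before H2-Q2. A gamma-activated site, TTCNNNGAA, was in 4 of the 38 windows and 7.02% of all windows. These matches describe letters, not binding.

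Peptide supply genes were higher on average in Rag1Cre-Nfatc1fl/fl in 6 of 6, where 49.3% of all tested genes had a positive log2 fold change. Of the 6, 1, Tap1, was called (16.7%, against 6.47% of all tested genes called higher). Psmb9, Tap1, Psmb8 and Tap2 lie next to each other in the MHC, so the 6 are not separate observations. Tap1, 1 chain of the TAP transporter, had 313, 323 and 357 CPM in Rag1Cre-Nfatc1fl/fl, against 247, 218 and 230 CPM in Nfatc1fl/fl libraries (log2 fold change 0.51, SE 0.0914, edgeR adjusted p = 0.00634). It lies just past the limit on the fold change, and the call was lost in all 6 fits without 1 library. Tap2, the partner chain, had 276, 301 and 262 CPM in Rag1Cre-Nfatc1fl/fl, against 213, 198 and 217 CPM in Nfatc1fl/fl (log2 fold change 0.42, edgeR adjusted p = 0.0128). Tapbp, or tapasin, which holds empty class I molecules at the transporter, had 385, 433 and 324 CPM in Rag1Cre-Nfatc1fl/fl, against 270, 260 and 260 CPM in Nfatc1fl/fl (log2 fold change 0.53, edgeR adjusted p = 0.0135), and was called without Rag1Cre-Nfatc1fl/fl replicate 3 (0.65, edgeR adjusted p = 0.000107). On the TPM scale the groups overlapped in both, with Tap2 of Rag1Cre-Nfatc1fl/fl replicate 3 within the range of the Nfatc1fl/fl libraries and Tapbp below it (204 TPM, against 210 to 215 TPM in Nfatc1fl/fl).

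The 3 immunoproteasome subunits were not called in the main edgeR fit, although each had an unadjusted p under 0.05. Psmb10, 1 of them, was called by DESeq2 and by edgeR without the filter on low counts. Psmb8 (LMP7) had 549, 556 and 817 CPM in Rag1Cre-Nfatc1fl/fl, against 471, 476 and 506 CPM in Nfatc1fl/fl. Psmb9 (LMP2) had 130, 131 and 203 CPM in Rag1Cre-Nfatc1fl/fl, against 113, 101 and 96.7 CPM in Nfatc1fl/fl. Psmb10 (MECL-1) had 152, 162 and 220 CPM in Rag1Cre-Nfatc1fl/fl, against 118, 119 and 113 CPM in Nfatc1fl/fl. Their log2 fold changes were 0.40, 0.58 and 0.61 (edgeR adjusted p = 0.103, 0.0503 and 0.0179). Replicate 3 of Rag1Cre-Nfatc1fl/fl was the highest library for each, and leaving it out gave 0.20, 0.35 and 0.44. Set against the constitutive subunits they replace (Psmb5, Psmb6 and Psmb7), the summed TPM gave ratios of 1.04, 1.04 and 0.926 in Rag1Cre-Nfatc1fl/fl and 0.928, 0.923 and 0.935 in Nfatc1fl/fl libraries. So the ratio was higher in 2 Rag1Cre-Nfatc1fl/fl libraries and, in replicate 3, within the Nfatc1fl/fl range. Psmb9 and Tap1 overlap head to head, and without strand their shared reads cannot be told apart.

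**Figure D3:**
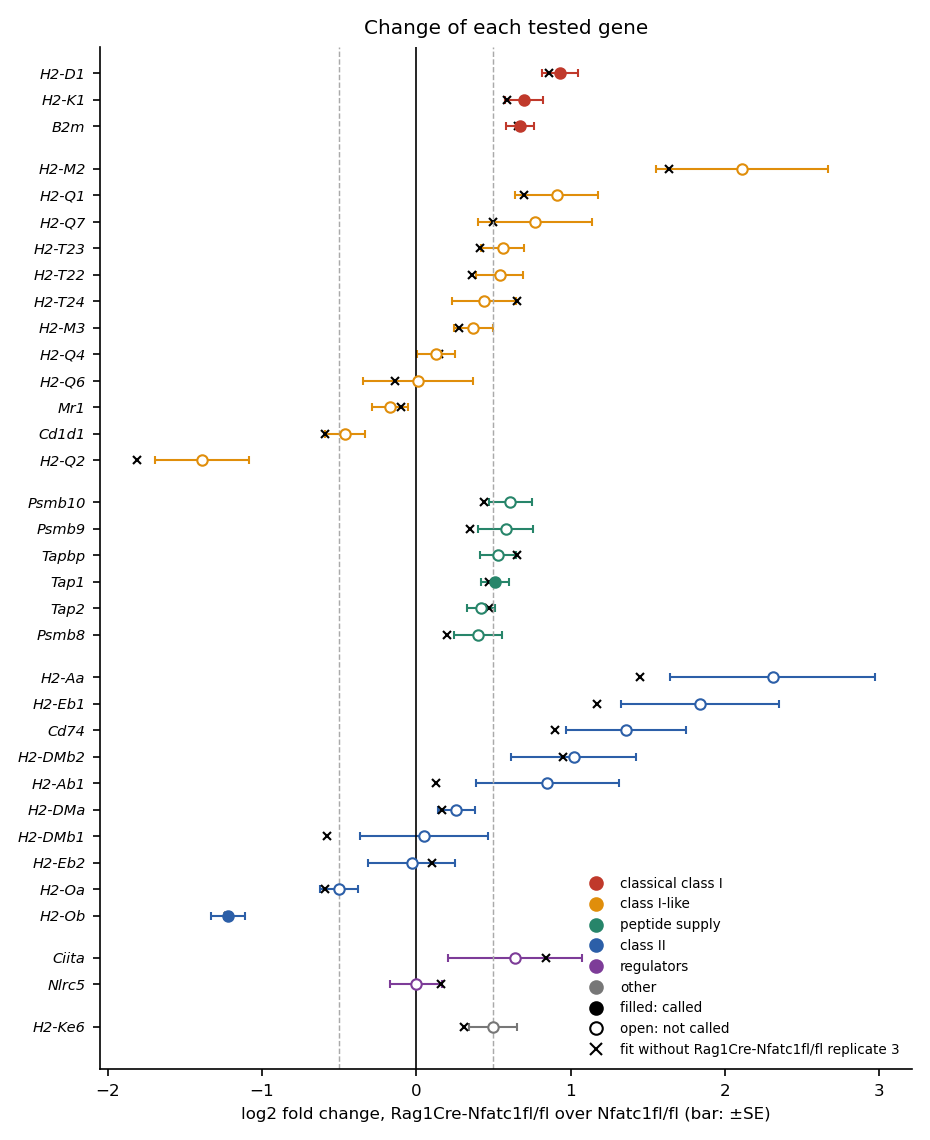
Log2 fold change, Rag1Cre-Nfatc1fl/fl over Nfatc1fl/fl, with its standard error for each of the 34 tested genes by role, filled where called. Crosses give the fit without Rag1Cre-Nfatc1fl/fl replicate 3, and dashed lines mark 0.5 on each side. Classical class I and peptide supply genes lay within a narrow range, 0.40 to 0.93, while class II genes ran from -1.22 to 2.31.

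The class I-like genes did not share a direction. Of 24, 12 were tested and 0 were called by edgeR, with 7 at an unadjusted p under 0.05. DESeq2 called 2 higher and 1 lower of 15, where it called 1251 higher and 741 lower of 21780 genes. Limma-voom called 1 lower of 12 (473 of 13185 over all genes). Without the filter on low counts edgeR called 1 higher and 1 lower of 15 (1090 and 613 of 21780 over all genes). In 5 of the 12 the Rag1Cre-Nfatc1fl/fl libraries lay above all Nfatc1fl/fl libraries (41.7%, against 23.3% of all tested genes) and in 2 below them (16.7%, against 23.4%), and the median log2 fold change was 0.41.

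H2-Q2, a Qa-type gene, had the lowest log2 fold change of the class I genes. It had 18.2, 13.8 and 33.0 CPM in Rag1Cre-Nfatc1fl/fl replicates 1, 2 and 3, against 59.9, 44.3 and 65.0 CPM in the Nfatc1fl/fl replicates. The groups did not overlap, but replicate 3 stood well above the other Rag1Cre-Nfatc1fl/fl libraries, and the gene was not called (log2 fold change -1.39, SE 0.304, edgeR adjusted p = 0.0150). Without replicate 3 it was -1.81 and called (edgeR adjusted p = 9.97e-05), in a fit that called 4.95% of all tested genes lower. Of its reads 98.6% were unique, so few were shared with another copy. Its neighbours in the same gene cluster did otherwise: H2-Q4 averaged 91.0 ± 5.22 CPM in Rag1Cre-Nfatc1fl/fl and 83.4 ± 13.4 CPM in Nfatc1fl/fl (SD, n = 3 each), and its log2 fold change was 0.13 (edgeR adjusted p = 0.494).

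H2-Q7, which encodes the Qa-2 antigen, had 95.5, 115 and 174 CPM in Rag1Cre-Nfatc1fl/fl, against 123, 47.7 and 55.2 CPM in Nfatc1fl/fl. Nfatc1fl/fl replicate 1 lay above 2 of the 3 Rag1Cre-Nfatc1fl/fl libraries, and the difference was not called (log2 fold change 0.77, edgeR adjusted p = 0.171). Over the fits that each leave out 1 library it was 0.50 to 1.31, with 0.50 without Rag1Cre-Nfatc1fl/fl replicate 3. H2-Q6, its near copy, had 12.9, 16.8 and 20.0 CPM in Rag1Cre-Nfatc1fl/fl, against 26.9, 9.63 and 12.8 CPM in Nfatc1fl/fl, with the same Nfatc1fl/fl library highest. Its log2 fold change was 0.01, and the sign turned with exon reads, TPM or the length trend removed. H2-Q1 was low, with 1.97 to 3.22 CPM in Rag1Cre-Nfatc1fl/fl and 1.20 to 1.45 CPM in Nfatc1fl/fl, and only 78.7% of its reads were unique (log2 fold change 0.91, edgeR adjusted p = 0.0432, not called). Summed over the H2-Q genes, the level was 181, 198 and 207 TPM in Rag1Cre-Nfatc1fl/fl and 271, 174 and 211 TPM in Nfatc1fl/fl libraries, with overlap.

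The H2-T genes were higher on average in Rag1Cre-Nfatc1fl/fl. H2-T23, which encodes Qa-1, the ligand of the NKG2A receptor, was the most abundant class I-like gene, with 347, 350 and 478 CPM in Rag1Cre-Nfatc1fl/fl, against 289, 248 and 258 CPM in Nfatc1fl/fl. H2-T22 had 152, 162 and 225 CPM in Rag1Cre-Nfatc1fl/fl, against 134, 116 and 120 CPM in Nfatc1fl/fl. In both genes the groups did not overlap and replicate 3 was the highest library, with log2 fold changes of 0.56 and 0.54 (edgeR adjusted p = 0.0248 and 0.0376, not called). They were 0.41 and 0.36 without replicate 3. The γδ TCR ligand gene H2-T10, which is not protein-coding in the tables and so not counted here, had 10.4, 8.29 and 10.9 CPM in Rag1Cre-Nfatc1fl/fl, against 9.56, 8.62 and 7.88 CPM in Nfatc1fl/fl, with overlap (log2 fold change 0.18, edgeR adjusted p = 0.413). H2-T24 averaged 23.4 ± 5.89 CPM in Rag1Cre-Nfatc1fl/fl and 17.2 ± 3.0 CPM in Nfatc1fl/fl (SD, n = 3 each), with 72.1% of its reads unique and a log2 fold change of 0.44 (edgeR adjusted p = 0.160). Of H2-T22, H2-T23 and H2-T24, H2-T24 alone was called without replicate 3 (0.65, edgeR adjusted p = 0.00472). A single antisense gene, A930015D03Rik, overlaps all 3 and had 2274 reads over the libraries, against 2666 for H2-T24, 19562 for H2-T22 and 42432 for H2-T23. Reads of the 2 strands cannot be told apart.

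H2-M3, which presents formylated bacterial peptides, had 24.7, 26.3 and 31.2 CPM in Rag1Cre-Nfatc1fl/fl, against 23.5, 18.9 and 21.2 CPM in Nfatc1fl/fl (log2 fold change 0.37, edgeR adjusted p = 0.0715). The lipid-presenting Cd1d1 had the opposite sign, with 21.8, 18.6 and 26.2 CPM in Rag1Cre-Nfatc1fl/fl, against 29.9, 30.0 and 31.7 CPM in Nfatc1fl/fl. The groups did not overlap, the log2 fold change was -0.46 (SE 0.131, edgeR adjusted p = 0.0381, not called), and without Rag1Cre-Nfatc1fl/fl replicate 3 it was -0.59 and called (edgeR adjusted p = 0.000908). Mr1, which presents vitamin B metabolites to MAIT cells, had 14.8 to 17.6 CPM in Rag1Cre-Nfatc1fl/fl and 16.1 to 19.5 CPM in Nfatc1fl/fl, with overlap (log2 fold change -0.17, edgeR adjusted p = 0.344). H2-M2, tested at 0.734 to 1.74 CPM in Rag1Cre-Nfatc1fl/fl and 0.132 to 0.430 CPM in Nfatc1fl/fl, rested on 84 reads in all. The 12 untested class I-like genes were H2-Q10 with 27 reads over the 6 libraries, H2-M5 with 30, H2-T3 with 4, and 9 further H2-M genes with none.

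Class II genes split in direction. In the main edgeR fit H2-Ob was called lower and 0 of the 10 tested higher, where 3.51% of all tested genes were called lower and 6.47% higher. Of the 10, 6 had an unadjusted p under 0.05. DESeq2 called 2 higher, H2-Eb1 and Cd74 (1251 of 21780 over all genes). Without the filter on low counts edgeR called 3 higher, H2-Aa, H2-Eb1 and Cd74 (1090 of 21780 over all genes). With the replicate numbers as a block it called 1, Cd74 (778 of 13185 over all genes). H2-Ob, the β chain of the H2-O heterodimer that restrains peptide loading, had 8.17, 8.52 and 8.45 CPM in Rag1Cre-Nfatc1fl/fl, against 17.7, 20.2 and 20.7 CPM in Nfatc1fl/fl. The 3 Rag1Cre-Nfatc1fl/fl libraries differed by less than 1 CPM and the groups were far apart (log2 fold change -1.22, SE 0.111, edgeR adjusted p = 0.000331). This call held in every setting tried, with a log2 fold change between -1.29 and -1.17 when single libraries were left out. All of its reads were unique, in 178, 187 and 160 reads in Rag1Cre-Nfatc1fl/fl and 412, 459 and 466 in Nfatc1fl/fl libraries.

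H2-Oa, the α chain of the same heterodimer, had 22.9, 21.3 and 27.0 CPM in Rag1Cre-Nfatc1fl/fl, against 31.4, 31.3 and 37.8 CPM in Nfatc1fl/fl. The groups did not overlap, and the log2 fold change was -0.50 (SE 0.125, edgeR adjusted p = 0.0251, not called), or -0.59 and called without Rag1Cre-Nfatc1fl/fl replicate 3 (edgeR adjusted p = 0.00202). The partner H2-DM genes did not show this. H2-DMa had 47.6, 56.2 and 62.3 CPM in Rag1Cre-Nfatc1fl/fl, against 43.5, 44.5 and 51.1 CPM in Nfatc1fl/fl (log2 fold change 0.26, edgeR adjusted p = 0.164, and 0.17 without Rag1Cre-Nfatc1fl/fl replicate 3), while H2-DMb1 had 2.50 to 6.86 CPM in Rag1Cre-Nfatc1fl/fl and 2.73 to 4.39 CPM in Nfatc1fl/fl. H2-DMb2 had 0.911 to 2.29 CPM in Rag1Cre-Nfatc1fl/fl and 0.616 to 1.02 CPM in Nfatc1fl/fl (log2 fold change 1.02, edgeR adjusted p = 0.105). The summed TPM of the H2-O genes over that of the H2-DM genes was 0.628, 0.513 and 0.534 in Rag1Cre-Nfatc1fl/fl and 0.984, 1.03 and 1.02 in Nfatc1fl/fl libraries, with a wide gap between the groups.

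The peptide-binding class II chains were low in both groups and rested in part on 1 library. H2-Aa had 7.16, 4.10 and 19.6 CPM in Rag1Cre-Nfatc1fl/fl, against 3.36, 0.748 and 2.09 CPM in Nfatc1fl/fl (log2 fold change 2.31, SE 0.664, edgeR adjusted p = 0.0404). H2-Eb1 had 7.57, 5.10 and 17.8 CPM in Rag1Cre-Nfatc1fl/fl, against 4.13, 1.54 and 2.80 CPM in Nfatc1fl/fl (1.84, SE 0.512, edgeR adjusted p = 0.0363). Cd74, the invariant chain, had 19.0, 12.1 and 33.5 CPM in Rag1Cre-Nfatc1fl/fl, against 10.7, 5.28 and 9.22 CPM in Nfatc1fl/fl (1.36, SE 0.388, edgeR adjusted p = 0.0395). In all 3 the groups did not overlap, replicate 3 was the highest library, and the differences were not called. Without it the log2 fold changes were 1.45, 1.17 and 0.90 (edgeR adjusted p = 0.0406, 0.0293 and 0.0316). H2-Ab1, the partner chain of H2-Aa, had 12.0, 7.15 and 29.0 CPM in Rag1Cre-Nfatc1fl/fl, against 9.51, 6.64 and 10.4 CPM in Nfatc1fl/fl. Its groups overlapped, and the log2 fold change of 0.85 (edgeR adjusted p = 0.215) was 0.13 without replicate 3. H2-Eb2 stayed between 1.43 and 2.25 CPM in Rag1Cre-Nfatc1fl/fl and 1.42 and 2.14 CPM in Nfatc1fl/fl.

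Macrophage or monocyte markers peaked in the same library as these chains. The 11 macrophage or monocyte markers summed to 95.6, 60.7 and 321 CPM in Rag1Cre-Nfatc1fl/fl replicates 1, 2 and 3, against 105, 33.9 and 23.9 CPM in the Nfatc1fl/fl replicates. They were highest in the library with the most H2-Aa, H2-Ab1, H2-Eb1 and Cd74, which together had 45.7, 28.5 and 99.9 CPM in Rag1Cre-Nfatc1fl/fl, against 27.7, 14.2 and 24.5 CPM in Nfatc1fl/fl. Of the 11, 10 were tested and 0 called by edgeR, DESeq2 or limma-voom, with 3 at an unadjusted p under 0.05. By edgeR 6.47% of all tested genes were called higher and 3.51% lower. Csf1r, which defines the macrophage lineage and had the lowest edgeR adjusted p of the 10 (0.0788), had 10.9, 6.88 and 31.5 CPM in Rag1Cre-Nfatc1fl/fl, against 8.26, 3.17 and 1.91 CPM in Nfatc1fl/fl. Some other markers were higher in Nfatc1fl/fl replicate 1 than in Rag1Cre-Nfatc1fl/fl replicates 1 and 2. C1qa had 21.2, 13.2 and 80.2 CPM in Rag1Cre-Nfatc1fl/fl, against 23.1, 6.6 and 5.7 CPM in Nfatc1fl/fl. For Lyz2, the only tested marker that did not peak in Rag1Cre-Nfatc1fl/fl replicate 3, these were 6.56, 3.23 and 5.81 CPM, against 10.0, 2.46 and 1.38 CPM. Within Rag1Cre-Nfatc1fl/fl the marker sum and the class II sum ranked the libraries alike. Within Nfatc1fl/fl replicate 1 was highest in both sums, and replicates 2 and 3 ranked in opposite order. Between the groups, Rag1Cre-Nfatc1fl/fl replicate 1 and Nfatc1fl/fl replicate 1 had marker sums of 95.6 and 105 CPM and class II sums of 45.7 and 27.7 CPM. The part of these cells in the class II values was not tested.

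The 11 dendritic cell markers summed to 93.2 to 111 CPM in Rag1Cre-Nfatc1fl/fl and 117 to 121 CPM in Nfatc1fl/fl libraries. Most of this was Ccr7, which thymocytes make too. Without Ccr7 the sum was 10.1, 6.56 and 11.7 CPM in Rag1Cre-Nfatc1fl/fl and 6.46, 4.75 and 4.94 CPM in Nfatc1fl/fl, higher in each Rag1Cre-Nfatc1fl/fl library. Batf3, a dendritic cell transcription factor, had 0.872, 1.18 and 1.27 CPM in Rag1Cre-Nfatc1fl/fl, against 0.387, 0 and 0.178 CPM in Nfatc1fl/fl (edgeR adjusted p = 0.0353, not called), and Clec9a and Siglech were at 0 to 0.138 CPM. The part of dendritic cells in the class II values was not tested. The 10 B cell markers summed to 332 to 365 CPM in Rag1Cre-Nfatc1fl/fl and 429 to 472 CPM in Nfatc1fl/fl, nearly all from Blk, Ighm and Cd79b. Ms4a1 and Pax5, which define B cells, lay between 0 and 0.158 CPM. The 9 thymic epithelium markers summed to 13.8 to 20.6 CPM in Rag1Cre-Nfatc1fl/fl and 23.3 to 27.4 CPM in Nfatc1fl/fl. That difference was Epcam, called lower, and without it the sums overlapped, at 7.89, 5.87 and 12.5 CPM in Rag1Cre-Nfatc1fl/fl and 7.88, 6.42 and 4.99 CPM in Nfatc1fl/fl. The B cell sum was lower in each Rag1Cre-Nfatc1fl/fl library, as H2-Ob and H2-Oa were, and its part in those values was not tested. The αβ or double-positive thymocyte markers summed to 1452, 1192 and 2004 CPM in Rag1Cre-Nfatc1fl/fl and 1700 to 1722 CPM in Nfatc1fl/fl libraries.

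**Figure D4:**
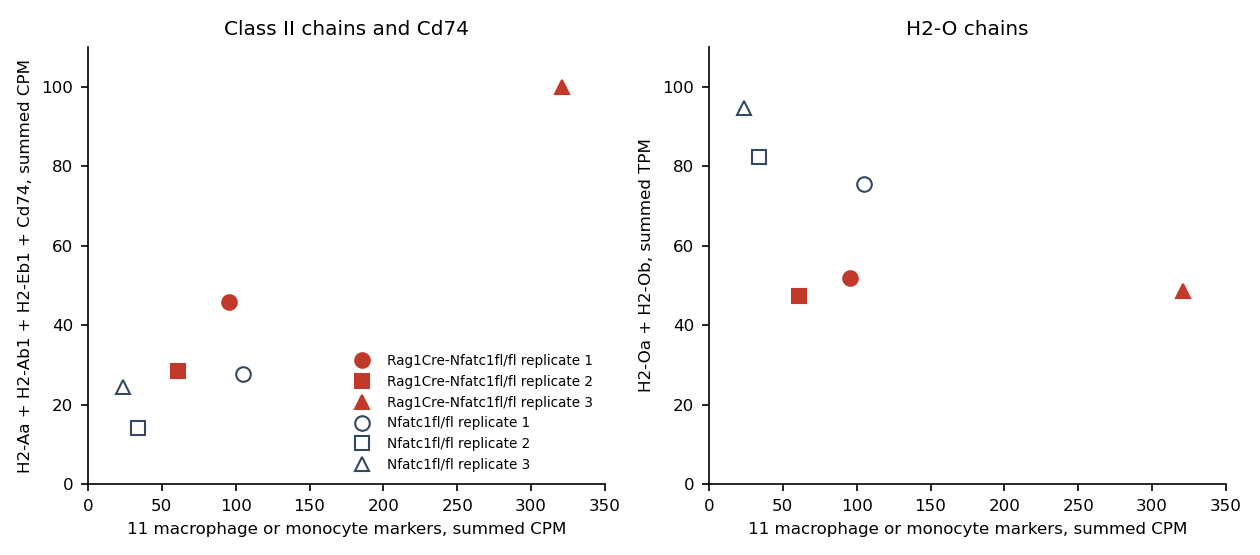
Class II levels against the summed CPM of 11 macrophage or monocyte markers (horizontal axis) in each library, with filled points for Rag1Cre-Nfatc1fl/fl and open points for Nfatc1fl/fl. On the left, the summed CPM of H2-Aa, H2-Ab1, H2-Eb1 and Cd74 was highest, at 99.9, in the library with the highest marker sum, 321. On the right, the summed TPM of H2-Oa and H2-Ob lay between 47.4 and 51.9 in all 3 Rag1Cre-Nfatc1fl/fl libraries and between 75.5 and 94.6 in Nfatc1fl/fl.

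Neither regulator was called. Nlrc5, the transactivator of class I genes, had 30.2, 30.3 and 21.3 CPM in Rag1Cre-Nfatc1fl/fl, against 31.9, 23.4 and 26.7 CPM in Nfatc1fl/fl (log2 fold change -0.00, SE 0.169, edgeR adjusted p = 0.996). The groups overlapped, and without Rag1Cre-Nfatc1fl/fl replicate 3, its lowest library, the log2 fold change was 0.16 (edgeR adjusted p = 0.343). Ciita, the class II transactivator, had 0.792 to 1.47 CPM in Rag1Cre-Nfatc1fl/fl and 0.440 to 1.16 CPM in Nfatc1fl/fl, 122 reads in all, and overlaps Dexi on the other strand, which had 3563. A change in Ciita was not detectable at this depth (log2 fold change 0.64, SE 0.436, edgeR adjusted p = 0.319). H2-Ke6 had 29.9, 32.3 and 45.0 CPM in Rag1Cre-Nfatc1fl/fl, against 25.1, 24.2 and 26.5 CPM in Nfatc1fl/fl, with 67.5% of its reads unique and a log2 fold change of 0.50 (edgeR adjusted p = 0.0528, not called). Without Rag1Cre-Nfatc1fl/fl replicate 3, its highest library, it was 0.31.

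Genes around the MHC molecules did not move as 1 block. The interval from H2-K1 to H2-M2 (chr17:33996017-37483552, GRCm38) held 136 other protein-coding genes, of which 75 were tested, 6 called higher (8.0%, against 6.47% of all tested genes) and 1 lower (1.33%, against 3.51%), with a median log2 fold change of 0.03. The called neighbours included Ddr1, a collagen receptor (log2 fold change 4.39, edgeR adjusted p = 4.84e-05), Ly6g5b (1.76, 0.000101), Gnl1 (0.74, 0.00156) and Ier3 (2.64, 0.00208). The others were Neu1 and Gm7030, higher, and Zbtb12, lower, named after their values were seen. Ddr1 had 63.3, 79.5 and 58.1 CPM in Rag1Cre-Nfatc1fl/fl, against 2.63, 4.62 and 2.32 CPM in Nfatc1fl/fl, with no overlap. Along the interval H2-K1 lies at the start, the class II genes follow it, and H2-D1 comes after them, beside the H2-Q genes.

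**Figure D5:**
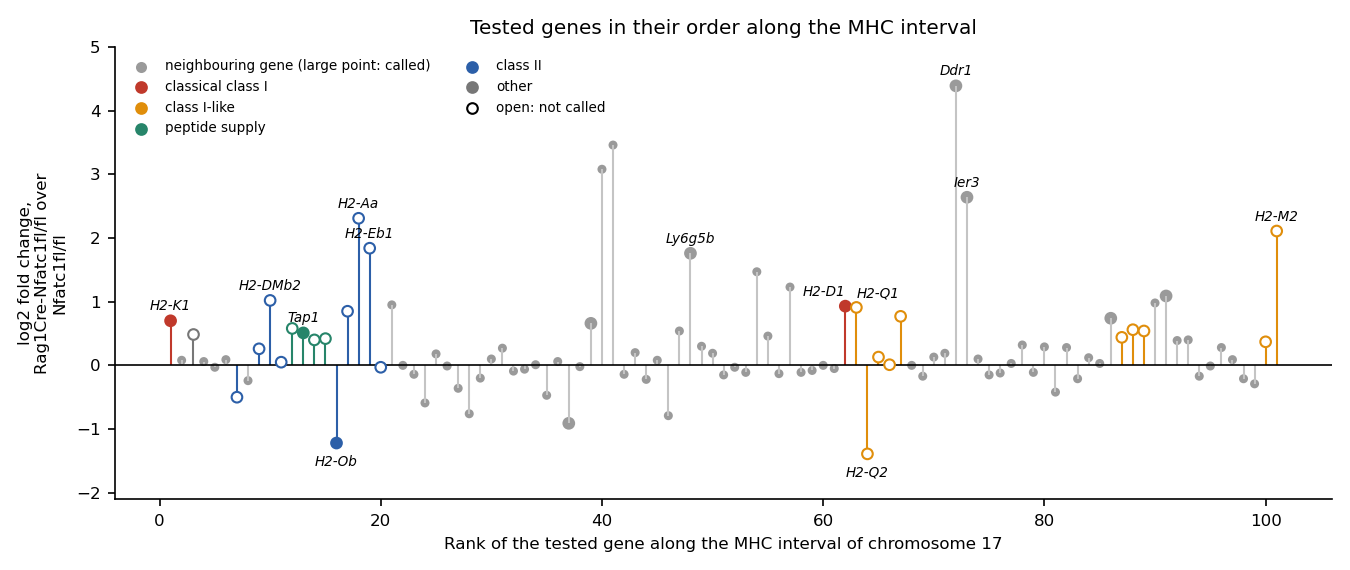
Log2 fold change, Rag1Cre-Nfatc1fl/fl over Nfatc1fl/fl, of the tested genes in the order in which they lie along the MHC interval of chromosome 17, with antigen presentation genes coloured by role and the 75 tested neighbours in grey. H2-Ob, at -1.22, stood beside class II genes with positive values, H2-Q2, at -1.39, beside H2-D1 and H2-Q1, and most neighbours lay near 0.

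Further steps of the pathway were described by lists. Of 11 genes that fold and load class I molecules in the endoplasmic reticulum, 0 were called by edgeR, DESeq2 or limma-voom. By edgeR 6.47% of all tested genes were called higher and 3.51% lower. Of the 11, 4 had an unadjusted p under 0.05, and the median log2 fold change was 0.20. Calr, or calreticulin, a chaperone of the peptide-loading complex, had 1035, 1115 and 1053 CPM in Rag1Cre-Nfatc1fl/fl, against 743, 841 and 733 CPM in Nfatc1fl/fl (log2 fold change 0.47, edgeR adjusted p = 0.0101), and Pdia3, its oxidoreductase partner, 0.26 (0.0806). Of 19 tested proteasome and proteasome activator genes 1 was called higher (5.26%, against 6.47% of all tested genes). It was Psme2, the β subunit of the PA28 activator, at 0.77 (edgeR adjusted p = 0.00795), but 48.7% of its reads were unique. Psme1, the α subunit, had a log2 fold change of 0.43 (edgeR adjusted p = 0.00928) and Psmb4 one of 0.44 (0.117), and neither was called. Psmb4 was highest in Rag1Cre-Nfatc1fl/fl replicate 3 and had 0.19 without it.

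Of 12 tested genes of the endosomal class II pathway 4 were called higher (33.3%, against 6.47% of all tested genes), with a median log2 fold change of 0.96. The count was 2 on TPM and without Rag1Cre-Nfatc1fl/fl replicate 2 or any 1 of the Nfatc1fl/fl libraries. Ifi30, the thiol reductase GILT that opens disulfide bonds of antigens, had 86.1, 105 and 98.7 CPM in Rag1Cre-Nfatc1fl/fl, against 21.2, 19.0 and 16.0 CPM in Nfatc1fl/fl (log2 fold change 2.37, SE 0.132, edgeR adjusted p = 4.02e-05). Ctss, or cathepsin S, which trims CD74, had 115, 128 and 147 CPM in Rag1Cre-Nfatc1fl/fl, against 64.2, 61.5 and 57.9 CPM in Nfatc1fl/fl (1.09, SE 0.108, edgeR adjusted p = 0.00051). In both genes the groups were far apart, and without Rag1Cre-Nfatc1fl/fl replicate 3, the library with the most macrophage markers, the log2 fold changes were 2.36 and 1.0. Ctsb and Ctsz, further lysosomal cathepsins, both had a log2 fold change of 0.56 (edgeR adjusted p = 0.00502 and 0.00543). Ctss, Ctsb and Ctsz were each highest in replicate 3, and the Ctsb and Ctsz calls were lost on TPM with a pseudocount of 1 (0.40 for both) and in 4 and 5 of the 6 fits without 1 library.

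Factors that bind MHC promoters were mostly not called, with 1 lower of 16 tested (6.25%, against 3.51% of all tested genes) and a median log2 fold change of -0.11. The 1 called was Creb1, a factor of the X2 box, which had 101, 92.4 and 86.6 CPM in Rag1Cre-Nfatc1fl/fl, against 130, 133 and 148 CPM in Nfatc1fl/fl (-0.55, edgeR adjusted p = 0.00565). This call was lost in all 6 fits that leave out 1 library, on TPM and with the length trend removed (-0.31, 0.0682). Nfkb1, which encodes a κB-binding subunit, had -0.14 (edgeR adjusted p = 0.510). Of 31 interferon response genes, 0 were called by edgeR, where 6.47% of all tested genes were called higher and 3.51% lower. Of the 31, 12 had an unadjusted p under 0.05, and the median log2 fold change was 0.33. DESeq2 called 3 higher (1251 of 21780 over all genes) and limma-voom 2 higher (847 of 13185). Without the filter on low counts edgeR called 4 higher (1090 of 21780). At an edgeR adjusted p under 0.05 alone, 7 were higher and 0 lower, where 13.2% of all tested genes were higher and 10.1% lower. Those higher included Bst2 (0.95, edgeR adjusted p = 0.0105), Ifit3 (1.20, 0.0165) and Igtp (0.44, 0.00937). The most abundant of the 31, the GTPase genes Ifi47 and Tgtp2, had log2 fold changes of 0.47 (edgeR adjusted p = 0.0717) and -0.07 (0.650). That of Ifi47 was 0.26 without Rag1Cre-Nfatc1fl/fl replicate 3, and 48.2% of the Tgtp2 reads were unique.

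The receptors that read these molecules were called in both directions, 3 higher and 1 lower of 15 tested (median log2 fold change 0.36). That was 20.0% higher, against 6.47% of all tested genes, and 6.67% lower, against 3.51%. Cd4, the coreceptor for class II, had 80.9, 67.9 and 90.1 CPM in Rag1Cre-Nfatc1fl/fl, against 32.7, 32.9 and 28.8 CPM in Nfatc1fl/fl (log2 fold change 1.34, SE 0.123, edgeR adjusted p = 0.000353). Lag3, an inhibitory receptor for class II, had 16.4, 18.3 and 18.7 CPM in Rag1Cre-Nfatc1fl/fl, against 7.10, 7.61 and 6.99 CPM in Nfatc1fl/fl (1.30, SE 0.114, edgeR adjusted p = 0.000288). In both genes the groups were far apart and did not overlap. Cd160, a receptor of class I and class I-like molecules, had a log2 fold change of 0.82 (edgeR adjusted p = 0.00101), and Klra1, the class I receptor Ly49A, was lower, with 3.53, 4.60 and 3.22 CPM in Rag1Cre-Nfatc1fl/fl, against 11.6, 16.8 and 10.0 CPM in Nfatc1fl/fl (-1.75, SE 0.237, edgeR adjusted p = 0.00193). Of 11 tested genes of CD1 lipid loading and other class I-like molecules 2 were called higher (18.2%, against 6.47% of all tested genes). Among them was Raet1e, a ligand of NKG2D (log2 fold change 0.78, edgeR adjusted p = 0.00756). The Raet1e call was lost on TPM, where the log2 fold change was 0.03 and 0.21 with pseudocounts of 1 and 0.1, and in 5 of the 6 fits without 1 library.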

How the data were processed

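Poly(A) RNA of magnetically enriched γδ thymocytes was sequenced in 3 Rag1Cre-Nfatc1fl/fl and 3 Nfatc1fl/fl libraries, grouped by their labels. The authors deposited 1 gene table per library with read counts per gene (total, unique and exon reads, not normalized) for 41195 genes on GRCm38. The study's methods give trimming with cutadapt, alignment with STAR and counting with featureCounts, but which program wrote these tables is not stated there. The library kit does not mark strand, so reads of overlapping genes cannot be told apart. Libraries held 20734771 to 22638531 gene reads.

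Total gene reads were tested in edgeR 4.0.16 (R 4.3.3; TMM scaling, filterByExpr, quasi-likelihood test), fitting genotype alone, and p-values were adjusted by Benjamini-Hochberg across 13185 tested genes. The study's thresholds were used: adjusted p under 0.01, and log2 fold change beyond 0.5 either way. CPM were scaled with TMM. TPM were recomputed from total exon reads and exon lengths, and served levels compared between genes. The scripts were tested on simulated data. Alternatives were other scalings, no filter, DESeq2 1.42.0, limma-voom and limma-trend (limma 3.58.1) on log2(TPM + 1) and log2(TPM + 0.1), each library left out, a replicate block, unique or exon reads, ribosomal protein and mitochondrial genes left out, the trend with exon length removed, and another threshold. Promoter windows came from RefSeq (GRCm38.p6), and the NCBIM37 genome was not used.

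The antigen presentation genes, pathway lists and cell type markers were chosen with earlier results of these data known. Every antigen presentation gene with a mean of at least 1 CPM or called changed is named. Some genes of the pathway and marker lists are counted but not reported by name here. Figures were drawn with matplotlib 3.10.9.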

Additional observations from a re-analysis of the deposited data

How the results depend on the processing

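Over all tested genes edgeR called 1316 changed, 853 higher and 463 lower. DESeq2 called 1992 in all and 741 lower. On TPM with a pseudocount of 1, 524 were called, 352 higher and 172 lower, and with a pseudocount of 0.1, 498, 351 higher and 147 lower. On these TPM scales the median over all tested genes shifted to -0.12 and -0.15 (log2), and that of the antigen presentation genes was 0.36 with a pseudocount of 1. An adjusted p under 0.05 with no limit on the fold change gave 1739 higher and 1334 lower. With each library left out the count was 488 to 1796, with 380 to 1131 higher and 100 to 665 lower. Of the antigen presentation genes, 4 were called higher and 1 lower. No filter on low counts and DESeq2 each gave 10 higher and 2 lower, TPM gave 2 higher with a pseudocount of 1 and 1 with 0.1, limma-voom gave 2 lower, the length trend removed gave 4 lower, and an adjusted p under 0.05 gave 14 higher and 4 lower. With each library left out, 0 to 5 were higher and 1 to 4 lower. The cause of these shifts was not tested.

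The replicate numbers were checked for pairing. Same-numbered libraries had correlations of their deviations of 0.019, 0.179 and -0.007, and differently numbered ones -0.153 to 0.102. Deviations from a mean of 3 libraries are tied to each other, so these values cannot decide whether same-numbered libraries were handled together. With the replicate block 3 antigen presentation genes were called higher and 2 lower: the H2-K1 (edgeR adjusted p = 0.0125) and Tap1 (0.0117) calls were lost, and Cd74 (1.30, 0.00611) and H2-Q2 (-1.45, 0.00177) were gained. Of the endosomal class II list, 2 were called higher with the block.

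For 32 named antigen presentation genes, 576 values were recomputed, and 499 kept direction and side of the threshold, 24 lost the call, 25 gained one and 28 turned sign. Nlrc5, at -0.00, was 0.00 with RLE size factors, no filter, DESeq2, unique reads or no ribosomal protein and mitochondrial genes, 0.12 with the length trend removed, and -0.10 to 0.16 with each library left out. H2-DMb1, at 0.05, was -0.11 in limma-voom, -0.06 with the replicate block, -0.19 and -0.22 on TPM, -0.15 with the length trend removed, and -0.58 to 0.30 with each library left out. H2-Q4, at 0.13, was -0.02 on TPM. H2-Q6, at 0.01, was -0.01 with exon reads, -0.04 on TPM, -0.10 with the length trend removed, and -0.26 to 0.56 with each library left out. H2-Eb2, at -0.03, was -0.25 to 0.11 with each library left out. Nfkb1, at -0.14, was 0.06 with the length trend removed and -0.23 to 0.03 with each library left out, and Tgtp2, at -0.07, was -0.11 to 0.01. With 3 libraries a group, low genes such as Ciita and H2-DMb1 have wide errors.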
